A study of Mus musculus with 6 samples.

Results

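Fibroblast growth factor (FGF) signalling was followed through 10 genes in cells sorted from mouse embryos of embryonic day 8.5. They are the ligands Fgf3, Fgf8, Fgf15, Fgf17 and Fgf18, and the feedback regulators and targets Spry1, Spry2, Spry4, Dusp6 and Etv4. Members were the probe sets that the platform annotation assigns to exactly 1 of these symbols: 18 probe sets for 10 genes, of 34945 probe sets with 1 gene symbol among 45101 on the array. Of the genes, 5 (Fgf8, Fgf15, Fgf18, Spry1 and Dusp6) had 1 probe set and the others had several. The gene identifiers of all 10 matched the RefSeq table.

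Embryos were heterozygous for a Noto-GFP reporter on a mixed 129S3;ICR background, of both sexes, with a median of 6 somites. Noto is a homeobox gene of the node and of cells that form the notochord. The region behind the boundary of the first somites of 23, 39 or 52 embryos was pooled and digested with 1% trypsin. Flow sorting gave GFP-positive cells (about 2600, 4300 and 6600) and GFP-negative cells, which are all the other cells of the same tissue and carry the same allele. Each pool gave 1 array of each population, so each group holds 3 arrays, and the reporter alone defines the GFP-positive cells. The question was which genes distinguish the GFP-positive cells from the cells around them.

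FGF ligands are secreted proteins that bind receptor tyrosine kinases and activate the RAS and ERK kinase cascade. ERK activity induces ETS transcription factors such as Etv4, and also inhibitors of its own pathway: the Sprouty proteins (Spry1, Spry2 and Spry4) act upstream in the cascade, and the phosphatase Dusp6 removes phosphate from ERK. In the posterior embryo, FGFs of the primitive streak and tail bud, Fgf8 foremost, are known for keeping presomitic mesoderm immature and for the movement of cells away from the streak.

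Upstream sequences are shown for 3 members: Fgf18, 1 of the 2 ligands called, Fgf3, which was also higher in all 3 pools, and Dusp6, the target gene with the most even difference across pools. Of the 10 members, 5 had an entry in the RefSeq promoter table (build GRCm38.p6), and Fgf8 was not among them. Each sequence is the 250 bases before the annotated start, 5′ to 3′ on the gene's strand, and capitals mark GGAA, the core that ETS factors bind, or its reverse complement TTCC.
Fgf18, chr11:33147401-33147650, strand -: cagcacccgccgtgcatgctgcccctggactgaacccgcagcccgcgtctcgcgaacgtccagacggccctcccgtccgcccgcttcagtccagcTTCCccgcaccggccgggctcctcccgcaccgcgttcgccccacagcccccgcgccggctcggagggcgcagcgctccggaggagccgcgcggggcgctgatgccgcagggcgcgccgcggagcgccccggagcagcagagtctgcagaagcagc
Fgf3, chr7:144838362-144838611, strand +: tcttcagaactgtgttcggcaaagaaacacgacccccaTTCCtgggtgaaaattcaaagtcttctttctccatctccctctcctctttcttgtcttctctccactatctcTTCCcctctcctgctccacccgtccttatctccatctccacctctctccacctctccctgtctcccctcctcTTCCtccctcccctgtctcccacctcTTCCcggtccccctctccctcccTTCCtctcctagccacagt
Dusp6, chr10:99262981-99263230, strand +: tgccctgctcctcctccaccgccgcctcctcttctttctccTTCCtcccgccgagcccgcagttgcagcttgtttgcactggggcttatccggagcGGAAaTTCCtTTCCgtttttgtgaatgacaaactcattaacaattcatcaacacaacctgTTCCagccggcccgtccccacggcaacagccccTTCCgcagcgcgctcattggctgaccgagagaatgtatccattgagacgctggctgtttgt
The core was present 1 time before Fgf18, 5 times before Fgf3 and 6 times before Dusp6, where 3 of the matches (first bases 154, 149 and 144 before the start) are separated from each other by a single base. The same search over 32851 promoter windows of 250 bases found at least 1 match in 93.4% of them, with a median of 3. The longer CCGGAA, which contains the core, or its reverse complement was in 12.0% of windows and in none of these 3. A match describes the letters only.

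The arrays differed in their control ratios, in their likeness to each other and in their medians. Both arrays of pool 1 had Gapdh control ratios, 3′ over 5′ signal, of 14.0 and 15.4, against 1.60 to 2.22 on the other 4. The ratio is commonly read as a measure of RNA integrity and of how far amplification reached. The GFP-negative array of pool 1 was nearer to its GFP-positive partner (Pearson's r over kept probe sets 0.964) than to the GFP-negative arrays of pools 2 and 3 (0.938 and 0.914). Array medians lay between 19.8 and 28.0, so a value of that size may be background. Values below are array intensities as the authors scaled them, and differences are on the scale of log2(intensity + 32), which understates changes of dim genes. A gene was called when its limma p, adjusted by Benjamini-Hochberg over 12628 genes, was under 0.05.

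Among the ligands, Fgf8 and Fgf18 were higher in GFP-positive cells, and they were the only members called. In the fit over all genes 2 of 10 members were higher and 0 lower, where 2.95% of all genes were called higher and 1.71% lower; before adjustment 4 members had a limma p under 0.05 with a higher value and 0 with a lower one, beside 12.7% and 10.0% of all genes. The median difference of the members was 0.30, that of the 5 ligands 0.66 and that of the 5 feedback and target genes 0.17, beside 0.01 over all genes. These arrays measure RNA of whole sorted populations, so more cells that express a gene and more RNA per cell cannot be told apart.

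**Figure D1:**
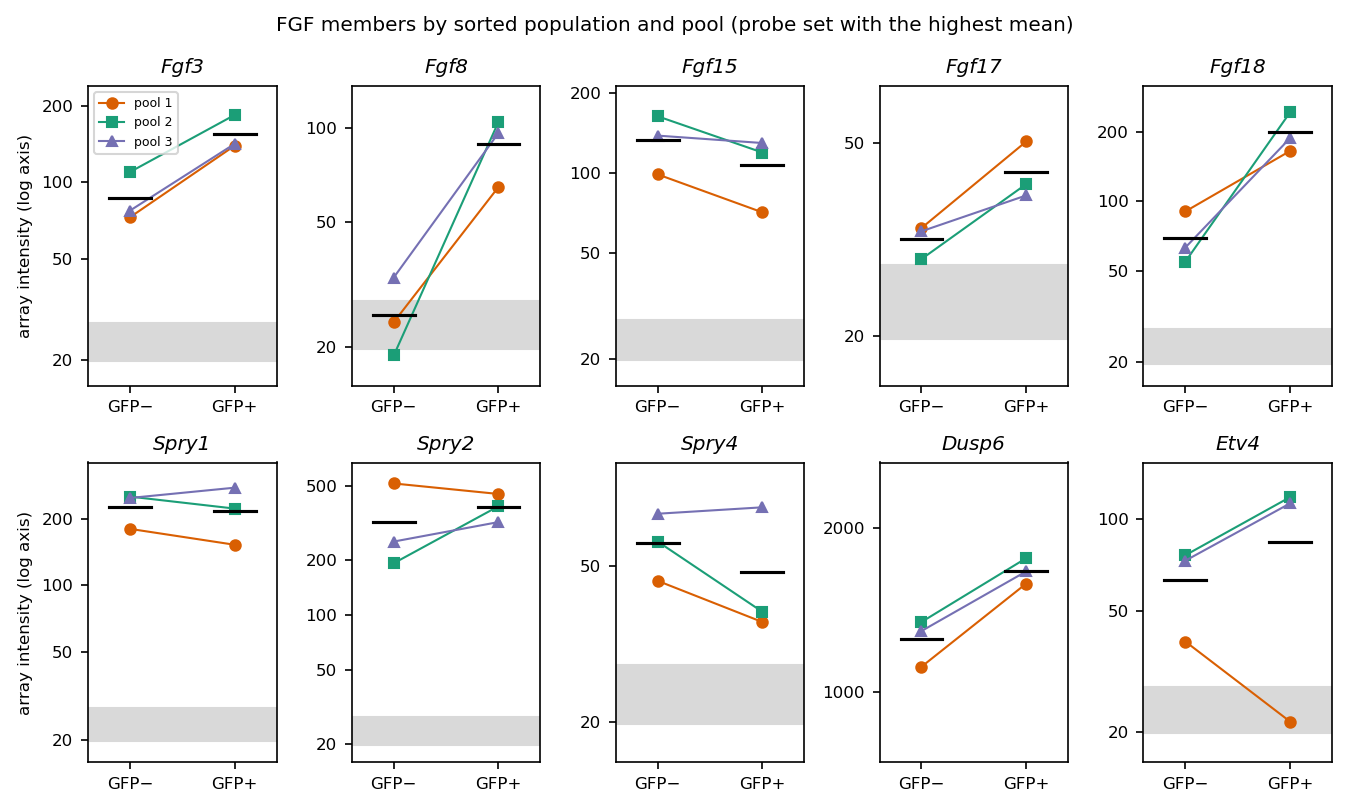
Array intensity (log axis, a scale of its own in each panel) of each member on the GFP-negative and GFP-positive arrays; lines join the arrays of 1 pool, black bars are means of 3 arrays and the grey band spans the array medians. Fgf3, Fgf8, Fgf17, Fgf18 and Dusp6 have every GFP-positive array above every GFP-negative array, whereas in Etv4 and Spry2 pool 1 runs against the other pools.

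Fgf8, the streak and tail bud ligand, had 1 probe set (1451882_a_at), with intensities of 64.8, 104 and 96.2 on the GFP-positive arrays of pools 1, 2 and 3. On the GFP-negative arrays it had 24.1, 18.8 and 33.4, which lie around the array medians. The groups did not overlap, and the log2 differences within pools were 0.79, 1.42 and 0.97; since the GFP-negative level may be background, no linear fold is given. The log2 difference was 1.06 ± 0.20 (SE; adjusted p = 0.0251), with a 95% interval from 0.61 to 1.51. The call rested on single arrays: adjusted p was 0.134 without GFP-positive array 2, 0.141 without GFP-positive array 3, 0.132 without GFP-negative array 2, 0.0520 without GFP-negative array 3, 0.580 without pool 2 and 0.191 without pool 3. In those 6 fits the difference stayed between 0.88 and 1.16, and 0.0343% to 1.09% of all genes were called higher.

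Fgf18, a ligand of the same subfamily as Fgf8 and Fgf17, had 165, 243 and 188 on the GFP-positive arrays. Its GFP-negative values were 90.3, 54.7 and 63.0, above the array medians. All GFP-positive arrays were brighter than all GFP-negative arrays, and the ratio within pools was 1.83, 4.44 and 2.98. The log2 difference of 1.19 ± 0.22 (SE; adjusted p = 0.0252) had a 95% interval from 0.68 to 1.70. Adjusted p was 0.138 without GFP-positive array 2, 0.128 without GFP-positive array 3, 0.135 without GFP-negative array 2, 0.0914 without GFP-negative array 3, 0.608 without pool 2 and 0.320 without pool 3, with differences between 0.95 and 1.22. In Fgf8 and Fgf18 alike the smallest within-pool log2 difference was that of pool 1, the pool with the high control ratios. In Fgf3, Fgf17 and Dusp6, the other members higher in every pool, pool 1 had the largest (0.71, 0.33 and 0.50). Without pool 1 Fgf8 and Fgf18 were both called, at 1.20 and 1.44 (adjusted p = 0.00138 and 0.000411), in a fit that called 20.1% of all genes higher.

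Fgf3, a ligand of the posterior embryo and the inner ear region, was not called in the fit of groups alone and was called with the pool as a block. Its brightest probe set (1441350_at) had 139, 184 and 142 on the GFP-positive and 72.8, 110 and 77.3 on the GFP-negative arrays. The groups did not overlap, and ratios within pools were close to each other at 1.91, 1.68 and 1.83. The difference was 0.66 ± 0.21 (SE), with adjusted p = 0.112 in the fit of groups alone and 0.0342 once the pool was a block, where 7.76% of genes were called higher. Without pool 1 it was 0.64 (adjusted p = 0.0280), in a fit that called 20.1% of genes higher. The mean of the Fgf3 probe sets gave 0.38 (adjusted p = 0.191).

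The other probe sets of Fgf3 were 1422923_at and 1441914_x_at, the second of a type that can bind more than 1 sequence. The first had 45.8, 50.7 and 50.0 against 26.2, 35.0 and 34.6, again with no overlap, and a difference of 0.34 ± 0.16 (adjusted p over probe sets 0.301). The second had 76.4, 108 and 85.1 against 60.6, 55.3 and 128, so that GFP-negative array 3 was the highest of all 6 and the groups overlapped.

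Fgf17 was dim, and its values leaned the same way as those of Fgf8 and Fgf18 without passing. Its brighter probe set (1456239_at) had 50.3, 41.1 and 38.9 on the GFP-positive and 33.4, 28.8 and 32.9 on the GFP-negative arrays, the latter little above the array medians. The difference was 0.24 ± 0.15 (SE; adjusted p = 0.375), with an interval from -0.11 to 0.59. Its other probe set (1421523_at) had 28.8, 31.7 and 30.3 against 21.2, 11.1 and 26.5. Both probe sets had no overlap between the groups, at a level where much of the signal may be background.

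Fgf15, the mouse counterpart of human FGF19, ran the other way in every pool. Its intensities were 71.3, 120 and 130 on the GFP-positive and 99.0, 164 and 139 on the GFP-negative arrays. The groups overlapped, since the pools differed more than the populations did. The difference of -0.26 ± 0.25 (SE) was not called (adjusted p = 0.566; interval from -0.83 to 0.31).

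In the RefSeq gene order Fgf3, Fgf4 and Fgf15 are neighbours on chromosome 7, with the long noncoding gene Gm26793 between Fgf4 and Fgf15. Fgf4, a streak ligand outside the 10 members, had 93.2, 83.9 and 84.6 on the GFP-positive and 47.3, 39.3 and 51.4 on the GFP-negative arrays. Its difference was 0.62 ± 0.17 (SE; adjusted p = 0.0764, and 0.0430 with the block). Of its 3 other probe sets 1450282_at ran against this, with 28.0, 13.5 and 17.1 against 9.51, 25.1 and 62.6, and the mean of its probe sets gave 0.35 (adjusted p = 0.176). By their brightest probe sets, Fgf3 and Fgf4 had every GFP-positive array above every GFP-negative one, and Fgf15 did not.

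**Figure D2:**
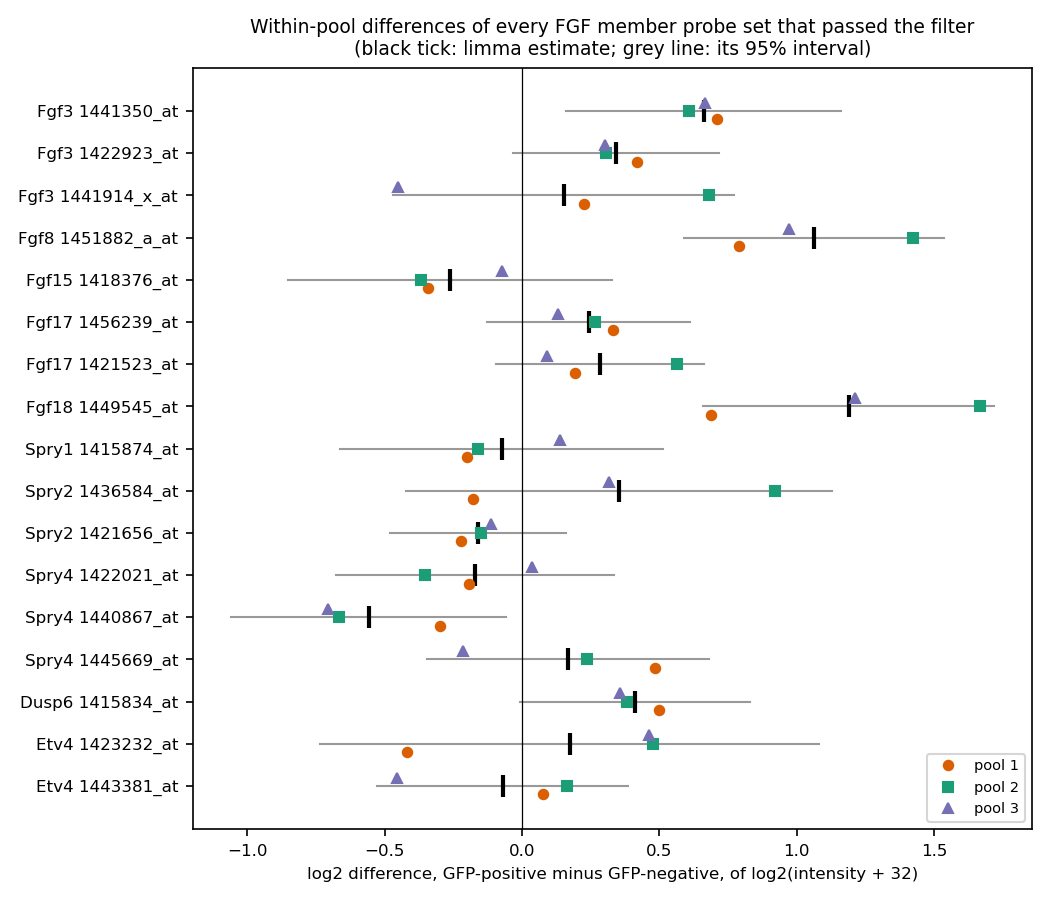
Difference of log2(intensity + 32), GFP-positive minus GFP-negative, within each pool (coloured symbols) for the 17 member probe sets that passed the filter, with the limma estimate (black tick) and its 95% interval (grey line). Fgf8 and Fgf18 lie farthest to the right, the probe sets of Spry4 fall on both sides of 0, and in 1423232_at of Etv4 pool 1 lies at -0.42 while the other pools lie at 0.47 and 0.46.

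None of the 5 feedback and target genes was called in limma. Before adjustment 1, Dusp6, had a p under 0.05, where 12.7% of all genes had one with a higher value. The pool as a block also called 0, where 7.76% of all genes were called higher and 5.99% lower. Dusp6, the ERK phosphatase, was bright on every array. It had 1583, 1763 and 1667 on the GFP-positive and 1113, 1345 and 1295 on the GFP-negative arrays. Every GFP-positive array was above every GFP-negative array, but by ratios of only 1.42, 1.31 and 1.29 within pools. The difference was 0.41 ± 0.18 (SE; adjusted p = 0.213, and 0.102 with the block), with an interval from 0.01 to 0.82. Without pool 1 it was 0.37 and was called (adjusted p = 0.0325), in a fit that called 20.1% of genes higher.

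The Sprouty genes, which encode feedback inhibitors of receptor tyrosine kinase signalling, did not move together. Spry1 had 153, 222 and 277 on the GFP-positive and 180, 252 and 248 on the GFP-negative arrays. These ranges overlapped almost fully, and the difference was -0.07 ± 0.25 (SE; adjusted p = 0.886; interval from -0.65 to 0.50).

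Spry2 split by pool. Its bright probe set (1436584_at) had 455, 390 and 320 on the GFP-positive and 519, 191 and 251 on the GFP-negative arrays, so GFP-negative array 1 was the highest of the 6. Within pools the log2 differences were -0.18, 0.92 and 0.32, and the fit gave 0.35 ± 0.34 (SE; adjusted p = 0.568). Without GFP-negative array 1 the value was 0.73 (adjusted p = 0.0488), in a fit that called 11.3% of genes higher. Without pool 1 it was 0.62 (adjusted p = 0.0208), where 20.1% of genes were called higher. Its other probe set (1421656_at) had 17.7, 16.4 and 21.6 against 25.9, 21.7 and 26.0, the opposite direction, at the level of the array medians. The part that the RNA of pool 1 has in these values was not tested.

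Spry4 had 4 probe sets that disagreed with each other. The brightest by mean (1422021_at) had 36.0, 38.2 and 70.5 against 45.8, 57.7 and 67.9, a difference of -0.17 ± 0.21 (SE; adjusted p = 0.668). The probe set 1440867_at was lower on every GFP-positive array, with 27.9, 25.5 and 40.2 against 41.7, 59.3 and 85.9 and a difference of -0.56 ± 0.22 (adjusted p over probe sets 0.222). The probe set 1445669_at had 72.5, 45.2 and 28.7 against 42.8, 33.6 and 38.4, higher in pools 1 and 2 and lower in pool 3. The last, 1422020_at, did not pass the filter, with values from 0.70 to 1.23 on all 6 arrays. No direction for Spry4 can be read from these 4 probe sets.

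Etv4, the ETS factor that FGF signalling induces, also split by pool. Its bright probe set (1423232_at) had 21.6, 118 and 113 on the GFP-positive and 39.6, 76.1 and 73.0 on the GFP-negative arrays. Both arrays of pool 1 were the lowest of their group, and the GFP-positive one lay at the level of its array median. The fit gave 0.17 ± 0.39 (SE; adjusted p = 0.825). Without pool 1 the difference was 0.47 (adjusted p = 0.0409), in a fit that called 20.1% of genes higher. The second probe set (1443381_at) had 39.9, 27.3 and 25.8 against 36.2, 21.0 and 47.2, with overlapping groups.

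Counted over probe sets, 17 of the 18 passed the filter on dim signal, all but 1422020_at of Spry4. In 7 of the 17 every GFP-positive array was above every GFP-negative one, beside 11.9% of all probe sets tested, and in 2 every GFP-positive array was below, beside 12.8%. The 7 were the probe sets of Fgf8, Fgf18 and Dusp6, both of Fgf17 and 2 of Fgf3; the 2 were 1421656_at of Spry2 and 1440867_at of Spry4. Counted over genes, 5 of 10 members had no overlap with the GFP-positive arrays above, beside 15.6% of all genes, and 0 of 10 with them below, beside 12.2%. The same 5 had the higher value in 3 of 3 pools, beside 28.4% of all genes, and 1, Fgf15, had the lower value in 3 of 3, beside 24.9%.

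Other genes of the pathway were read from 4 lists of 64 genes in all, of which 57 had a probe set with 1 symbol and 44 were measured. Of these 44, 1 was called higher and 0 lower in limma, beside 2.95% and 1.71% of all genes. Before adjustment 10 had a p under 0.05 with a higher and 5 with a lower value, against the same 12.7% and 10.0% of all genes. The median difference was 0.05. With the pool as a block 8 were higher and 1 lower, beside 7.76% and 5.99% of all genes.

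Among receptors and co-receptors, 6 of 9 were measured, and Fgfr1, the main FGF receptor of early mesoderm, was the 1 called. Its brightest probe set (1424050_s_at) had 187, 276 and 339 on the GFP-positive and 100, 109 and 109 on the GFP-negative arrays, with no overlap and a difference of 1.08 ± 0.23 (SE; adjusted p = 0.0422). Of its other probe sets, the dim 1425911_a_at was higher in every pool with overlapping groups, at 17.3, 37.0 and 44.1 against 13.5, 33.1 and 19.1. The other, 1436551_at, was lower in pools 2 and 3, at 85.2, 50.9 and 66.3 against 72.3, 95.6 and 101. The mean of the 3 gave 0.35 and was not called (adjusted p = 0.245). The call of 1424050_s_at was also lost without GFP-positive array 2 or 3 (adjusted p = 0.190 and 0.202), without GFP-negative array 2 or 3 (0.161 and 0.121) and without pool 2 or 3 (0.634 and 0.476).

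Fgfr2 and Fgfr3, receptors known from epithelia and neural tissue and chosen here after their values were seen, had the lower values in GFP-positive cells. Fgfr2 had 301, 239 and 234 against 427, 381 and 347, with no overlap and a difference of -0.53 ± 0.20 (SE; adjusted p = 0.168). Fgfr3 had 112, 92.8 and 116 against 148, 124 and 221, and a difference of -0.47 ± 0.23 (SE; adjusted p = 0.263). Fgfrl1, a receptor-like protein without a kinase, was also chosen after its values were seen. It had 554, 828 and 899 against 270, 564 and 494. It passed in the blocked limma fit (adjusted p = 0.0269) but not in that of groups alone (0.188).

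Of 17 other ligands, 8 were measured and 0 called in limma. Before adjustment 12.7% of all genes had higher and 10.0% lower values at p under 0.05, and of these ligands 2 had higher and 0 lower values. These were Fgf4, described above, and Fgf5, with 111, 41.6 and 53.4 against 10.3, 22.2 and 23.3. Fgf5 had a difference of 0.94 ± 0.26 (SE; adjusted p = 0.0816), and its GFP-negative values lay at or below the array medians. Without pool 1 the difference was 0.53 (adjusted p = 0.0394), in a fit that called 20.1% of genes higher.

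Of 17 other feedback and target genes, 15 were measured and 0 called in limma. Before adjustment 5 had higher and 1 had lower values at p under 0.05, beside 12.7% and 10.0% of all genes. The 1 with lower values was Spry3, dim at 12.1, 6.75 and 6.17 against 16.3, 30.1 and 25.4 (limma adjusted p = 0.122). With the pool as a block 5 were called higher and 0 lower, beside 7.76% and 5.99% of all genes. The 5 were Spred2, Flrt3, Egr1, Etv5 and Dusp5. Of the genes named here, all but Spred2 and Flrt3 were chosen after their values were seen. Spred2, an inhibitor of the RAS and ERK cascade related to Sprouty, had 929, 854 and 927 against 642, 367 and 303, a difference of 1.06 ± 0.28 (SE; adjusted p = 0.0688, and 0.0214 with the block). Of its other probe sets that passed the filter, 1436892_at and 1441802_at were higher in every pool, while 1441415_at had 174, 92.5 and 117 against 218, 145 and 97.2, and the mean of all gave 0.45 (adjusted p = 0.264). Flrt3, a membrane protein that binds FGF receptors, had 697, 383 and 383 against 243, 220 and 174, a difference of 1.05 ± 0.27 (SE; adjusted p = 0.0700, and 0.0144 with the block).

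Etv5, the close relative of Etv4, had 742, 647 and 615 on the GFP-positive and 580, 384 and 317 on the GFP-negative arrays. This probe set (1428142_at) had no overlap between the groups, and the difference was 0.65 ± 0.25 (SE; adjusted p = 0.173, and 0.0489 with the block). Its other probe sets were dim and did not run alike: 1420998_at had 16.5, 31.3 and 33.2 against 18.1, 37.6 and 58.2, lower in every pool, and 1450082_s_at had 37.3, 55.6 and 54.5 against 36.0, 40.2 and 39.7. The mean of the 3 gave 0.21 (adjusted p = 0.404). Egr1 had 1808, 767 and 1083 against 788, 394 and 505; it is an immediate early gene that cell dissociation can also induce, and the part of the dissociation was not tested. Dusp5, a phosphatase of ERK in the nucleus, had 135, 124 and 90.7 against 120, 13.5 and 9.71, so that GFP-negative array 1 stood with the GFP-positive arrays, as it did in Spry2.

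Of 21 transducers of the RAS and ERK cascade, 15 were measured and 0 called in limma. Before adjustment 1 had a higher and 2 had lower values at p under 0.05, beside 12.7% and 10.0% of all genes. The smallest p-values were those of Ksr1, a scaffold of the cascade, and of the kinase Braf, both with lower values in GFP-positive cells. Ksr1 had 30.6, 46.0 and 33.9 against 64.5, 100 and 133, a difference of -0.90 ± 0.23 (SE; adjusted p = 0.0657, and 0.0242 with the block). Braf had 279, 193 and 169 against 253, 472 and 451, a difference of -0.77 ± 0.29 (SE; adjusted p = 0.164), and in pool 1 the GFP-positive array was the higher. The mean of each gene's probe sets gave -0.56 for Ksr1 and -0.44 for Braf (adjusted p = 0.0868 and 0.196).

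**Figure D3:**
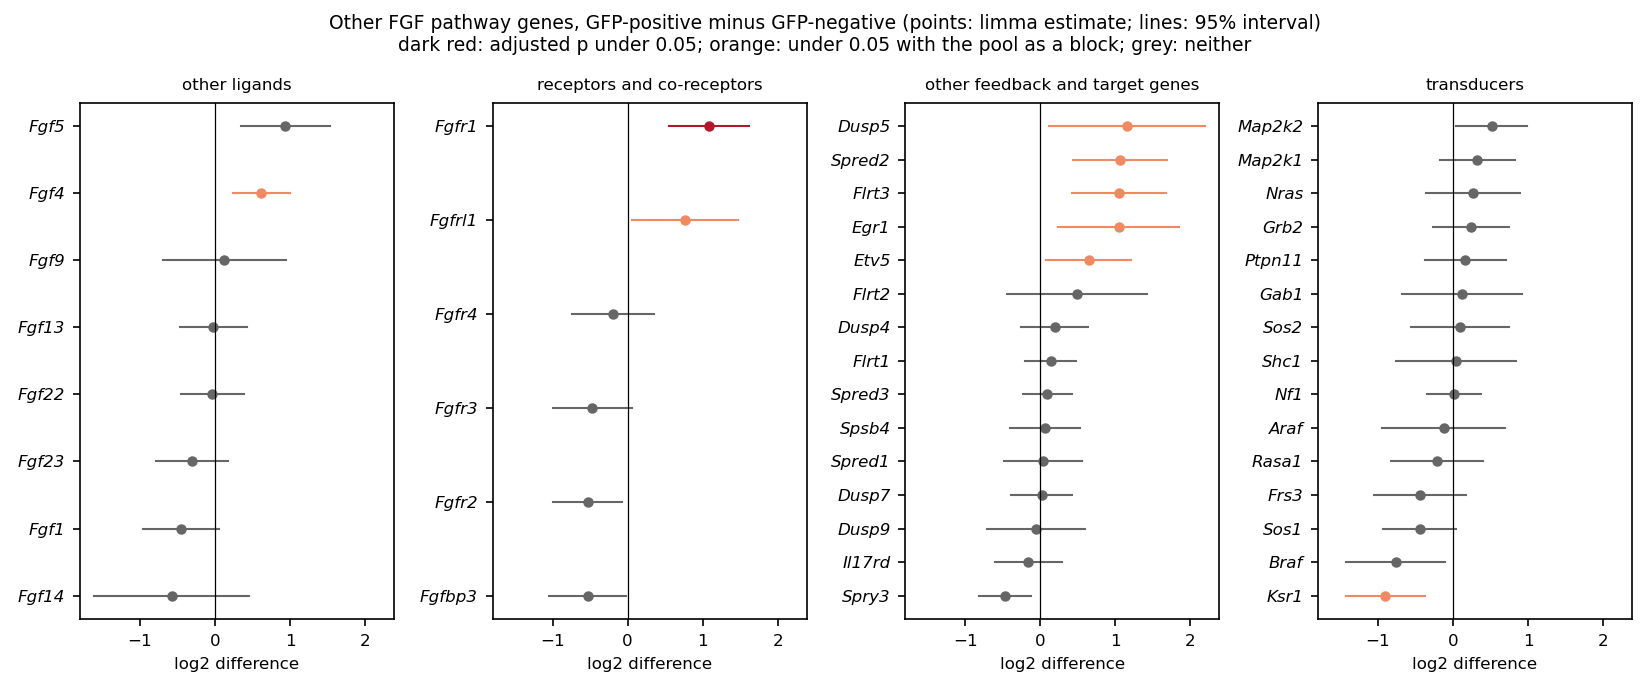
Difference of log2(intensity + 32), GFP-positive minus GFP-negative, for the 44 measured genes of the 4 pathway lists, as the limma estimate with its 95% interval. Fgfr1 is the 1 gene called (dark red); orange marks the other 7 higher and 1 lower gene that passed with the pool as a block and not in the fit of groups alone.

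The region holds several cell types, some of which express FGF ligands, and the marker lists of these types differed in their own ways between the groups. Of 13 presomitic and somite markers, all measured, 6 were called higher and 0 lower, beside 2.95% and 1.71% of all genes. Their summed intensity was 6460 to 7961 on the GFP-positive and 2617 to 3026 on the GFP-negative arrays. Pcdh8 and Dll1, both called, were the brightest of these on every array and weigh most in the sums. Of those not called, Msgn1, Lfng and Mesp1 had the lower value in pool 3, and the others had the higher value in every pool. Of 11 streak and tail bud markers 10 were measured, with 2 higher (Sp5 and Mixl1) and 1 lower (Nkx1-2). Their sum was 3743 to 4863 against 4570 to 4996. Nkx1-2 had 400, 915 and 821 against 1560, 2097 and 2043. It was the brightest of these markers on every GFP-negative array and so weighs most in the GFP-negative sums. Node and notochord markers summed to 11725 to 16274 against 392 to 890, with 11 of 13 higher. No marker was at 0 on any array, which does not show that each was detected, since some lay far below the array medians. Dand5 had 2.58 on GFP-negative array 1 and Dlx5 had 1.18 on GFP-positive array 3. The part that any of these cells has in the difference of Fgf8 and Fgf18 was not tested.

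Counts of called markers, here and above, are from the fit of groups alone, which called 2.95% of all genes higher and 1.71% lower. Lateral mesoderm markers, 6 of 9 called lower, summed to 369 to 612 against 2301 to 5703. Of 10 endothelial and blood markers 8 were measured and 3 called lower; they summed to 454 to 6063 against 13237 to 27952, and surface ectoderm markers, 4 of 6 called lower, to 183 to 239 against 336 to 396. Gut endoderm markers summed to 2172 to 4132 against 933 to 1631, with 4 of 9 higher (Cdh1, Epcam, Trh and Apela) and 1 lower (Hhex). This list did not move together. Of its genes not called, Hnf4a had the lower value in every pool, Sox17 and Cldn6 had the higher value in every pool, and Ttr was mixed. Neural plate markers, of cells in which Fgf15 is known, summed to 1317 to 1381 against 795 to 1501. Of these 9 markers 0 were called in either direction in limma. Before adjustment 2 had higher and 2 lower values at p under 0.05, beside 12.7% and 10.0% of all genes. With the pool as a block 7.76% of all genes were called higher and 5.99% lower. In that fit 10 of 13 presomitic markers were higher, 3 streak markers higher and 2 lower, and 1 neural plate marker higher and 2 lower. Lower too were 7 lateral mesoderm, 8 endothelial and blood and 4 surface ectoderm markers. Of gut endoderm markers 5 were higher and 1 lower, and 11 node markers were higher.

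**Figure D4:**
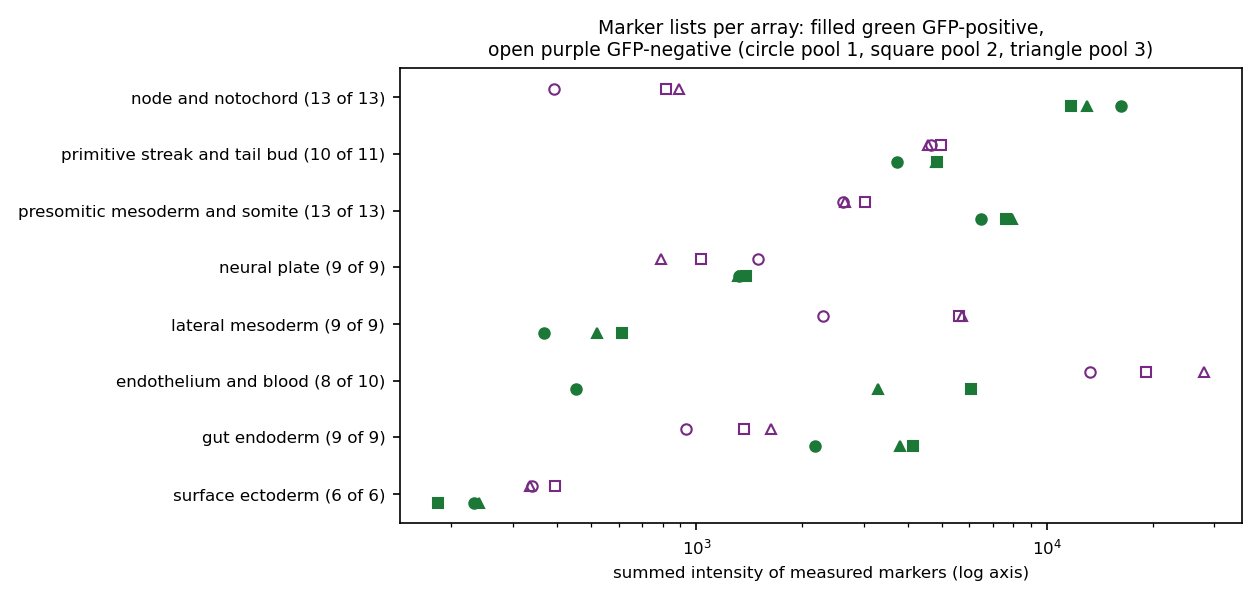
Summed intensity (log axis) of the measured markers of each cell type on every array; filled green symbols are GFP-positive and open purple symbols GFP-negative arrays, and the shape gives the pool. The sums of presomitic and somite markers separate the groups (6460 to 7961 against 2617 to 3026), while those of streak and tail bud markers overlap. Nkx1-2, lower in GFP-positive cells, is the brightest streak marker on every GFP-negative array.

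The genes most like the called members were found from the root mean square difference of the 6 log2 values after each gene was centred on its mean. Nearest to Fgf8 were Fam181b, at 0.079 log2 units, and Asl, the urea cycle enzyme argininosuccinate lyase, at 0.10. Nearest to Fgf18 were Mcrip1, at 0.11, and Pdlim4, a protein with PDZ and LIM domains, at 0.13. All 4 were called higher themselves, by 1.10, 1.02, 1.22 and 1.24. Likeness over 6 arrays of 2 populations says little beyond a shared direction and size.

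**Figure D5:**
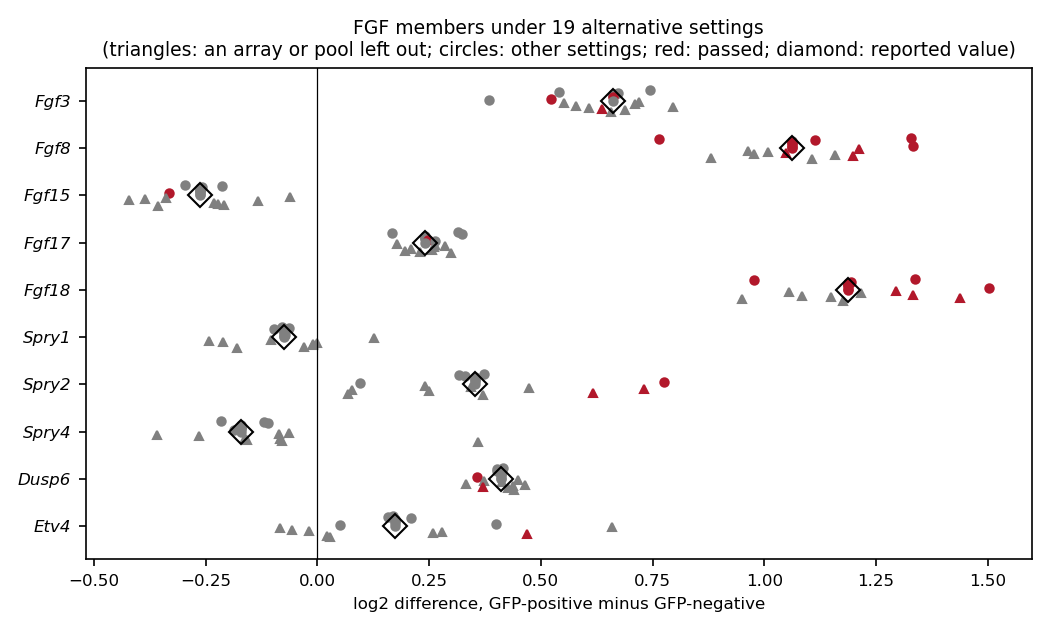
Log2 difference, GFP-positive minus GFP-negative, of each member in the reported fit (diamond) and under 19 alternative settings (triangles where an array or pool was left out, circles for the others, red where the gene was called). Fgf8 and Fgf18 stay above 0.76 throughout and lose the call in 7 and 6 settings, while Spry1, Spry4 and Etv4 take both signs.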

How the data were processed

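RNA was extracted with Trizol and a carrier, amplified through both cycles of an Affymetrix kit and labelled with biotin, per the labels' protocols. The deposited values are 1-colour array intensities from GCOS 1.4, per the submitters' processing notes; each array had the same mean of 150 once 2% of values were dropped from both tails, so the authors had set all arrays to 1 level. Detection calls were not used here, and precision is limited by the number of arrays. No per-sample column was left out (0 columns). Genome coordinates of the probe sets were not used here, and Noto was not analysed here.

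The log2 of intensity + 32 was used, and probe sets at or above the 40th percentile of the array on 3 or more of the 6 arrays passed (27821 of 45101). The passing probe set with the highest mean stood for a gene, and limma 3.58.1 (R 4.3.3; lmFit, eBayes with a variance trend) was fitted with group as the only term. P-values were adjusted over 12628 genes, or over kept probe sets where said, and intervals are 95% and not adjusted. A trial of the code on made-up values is not described here and no result of it is given. It therefore says nothing about how the fit handles arrays that share a pool, or the high control ratios of pool 1. Same-numbered arrays came from 1 pool of embryos per the labels, and their deviations from group means correlated at 0.542, 0.286 and 0.436, so the pool is a pairing and was used as a block in an alternative. P-values of the fit of groups alone measure the spread between arrays of a group, which came from different pools, and do not use the pairing. Those of the blocked fit measure the spread of the within-pool differences. Members, lists and tests were chosen with earlier results of these data known. Genes outside the members were named where they passed, up to 8 a list, or else by the 2 smallest p-values, and the 2 genes most like each called member; exceptions are marked. Alternatives were the offset (16 or 64), quantile normalization, no filter or a filter at the 60th percentile, no variance trend, the block, array weights, the mean of a gene's probe sets, a threshold of 0.1, and each array or pool left out.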

Additional observations from a re-analysis of the deposited data

How the results depend on the processing

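The count of members called higher was 2 as reported, 3 with the pool as a replicate block (Fgf3 added), 1 without a filter on dim probe sets (Fgf18; Fgf8 had adjusted p = 0.0550, with 18193 genes tested) and 6 with array weights, where 1 member, Fgf15, was lower. Leaving out an array or pool gave 0 to 6 members higher, 0 without GFP-positive array 2 or 3, GFP-negative array 2 or 3, or pool 2 or 3, and 6 without pool 1. The share of all genes called higher moved in the same direction, from 0.0343% without pool 2 to 20.1% without pool 1. Array weights called 28.2% and 25.4% of all genes higher and lower, and limma stopped before the estimate of the weights reached its tolerance.

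Of the other FGF pathway genes, 1 was higher as reported, 2 with quantile normalization, 0 without a filter, 8 with the pool as a block, 13 with array weights, 0 with the mean of a gene's probe sets and 5 at the threshold of 0.1; 0 were lower as reported, 1 with the block, 11 with array weights and 1 at the threshold of 0.1. Without 1 array or pool 0 to 11 were higher and 0 to 5 lower. Over 19 alternatives and 10 members, 161 of 190 values kept their sign and their side of the threshold, 13 lost the call and 11 gained it. The other 5 changed sign, and without 1 array or pool the values ran from -0.24 to 0.13 for Spry1, from -0.36 to 0.36 for Spry4 and from -0.084 to 0.66 for Etv4. Spry1 turned to 0.13 without GFP-positive array 1, Etv4 to -0.084 and -0.057 without GFP-positive arrays 2 and 3 and to -0.018 without GFP-negative array 1, and Spry4 to 0.36 without pool 3, where another of its probe sets (1445669_at) stood for the gene. The cause was not tested. Among the members the block changed the call of Fgf3 alone. The scale settings moved the median over all genes by less than 0.1.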
